A study of Rattus norvegicus with 6 samples.

Results

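The genes that build, load and display peptides on major histocompatibility complex (MHC) molecules were examined in brain RNA of SPORTS and wild type rats. Members were every probe whose transcript belongs to a gene with a symbol starting RT1-, the name of the rat MHC, and every probe of 10 genes of peptide processing, class II assembly or MHC transcription (B2m, Tap1, Tap2, Tapbp, Psmb8, Psmb9, Psmb10, Cd74, Ciita and Nlrc5). This gave 47 of 15168 genes that could be named on the array, read by 56 of its 30367 distinct probes: 36 probes of 29 class I genes, 11 probes of 9 class II genes and 9 probes of 9 processing genes. No probe was matched to Nlrc5, and 38 of the 67 RT1 symbols in the gene list used had a probe. The study set 3 rats of the SPORTS line, a mutant line known for hyperactivity, against 3 wild type rats. All 6 were sedentary males of Wistar background, aged 15 weeks, and each gave 1 single-colour array. No brain region, litter or RT1 haplotype is given in the sources used here. Precision is limited by having 3 arrays a group.

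MHC class I molecules sit on nearly all nucleated cells and show peptides of the cell's own proteins to CD8 T cells. A class I heavy chain needs B2m, its invariant light chain, and peptides that the proteasome cuts and the Tap1 and Tap2 transporter carries into the endoplasmic reticulum. Class II molecules, pairs of an alpha and a beta chain guarded by the invariant chain Cd74, show peptides taken up from outside to CD4 T cells. In the healthy brain these genes are kept low in neurons, are found more in microglia, vessels and the cells of the brain's borders, and rise with interferon.

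Each signal below is a log2 intensity relative to its own array, with 0 set at that array's 75th percentile. A difference is the SPORTS mean less the wild type mean on this scale. A probe was tested where either group had it well above background on every array. This held for 40 of the 56 member probes, for 34 genes. Differences carry the SE of a linear model fitted with limma to all 20657 tested probes, and a probe was called where its p, adjusted by Benjamini and Hochberg over all of them, was under 0.05. An array had 20325 to 23261 probes well above background, and all 5 neuron, astrocyte and oligodendrocyte genes looked up as a check of the tissue (Snap25, Syt1, Gfap, Aqp4 and Mbp) had a probe above it on all arrays. Slide row 1 held wild type replicates 1 and 2, and row 2 held wild type replicate 3 with all SPORTS arrays. A fit with the row as a block therefore gives the difference within row 2, where wild type rests on 1 rat. All arrays come from bulk tissue, in which more cells of a type and more RNA per cell cannot be told apart.

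Of the 40 tested member probes, 25 were called higher in SPORTS, for 23 genes, and 0 were called lower (limma; 33 higher and 0 lower at an unadjusted p under 0.05). Of all tested probes 11.1% were called higher and 10.1% lower. At an unadjusted p under 0.05 in limma, 3672 of all 20657 tested probes were higher and 3482 lower. With slide row as a block these counts were 2356 and 2848. The median difference of the members was 0.40, or 1.32-fold, against -0.0017 over all tested probes. Every SPORTS array lay above every wild type array in 32 of the 40 members, a pattern found in 21.4% of all tested probes. With slide row as a block 8 of the 40 were called higher and 0 lower, where 3.59% of all tested probes were called higher and 4.14% lower, and the members' median was 0.33. Differences ran from -0.42 to 0.65 over the tested members, and those of the called ones from 0.17 to 0.65, as the plot of the members against all probes shows.

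**Figure D1:**
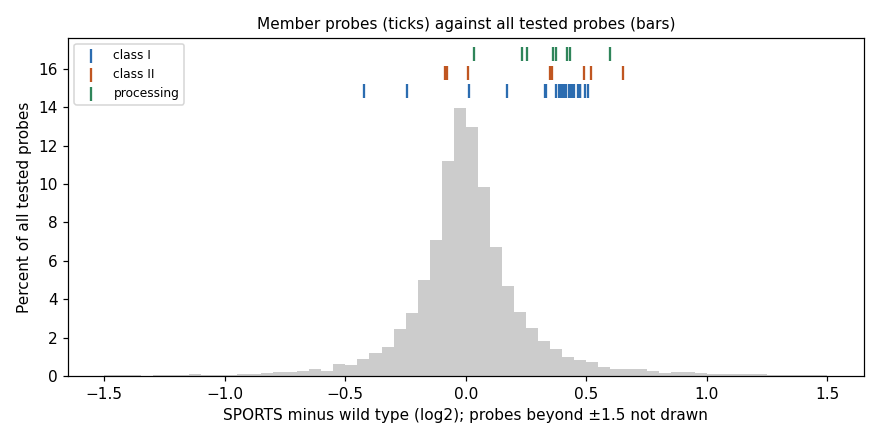
Distribution of SPORTS minus wild type differences (x axis, log2) over all tested probes (bars, y axis in percent of probes), with 1 tick for each tested member probe in a row for its class. Most member ticks lie to the right of 0, around the median of 0.40, while the bars centre on 0.

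Signal at probes of class I heavy chain genes was higher as a broad group. Of 24 tested probes 20 were called higher, for 18 of 20 genes, and 0 lower (limma; 21 higher and 0 lower at an unadjusted p under 0.05). Their median difference was 0.41, or 1.33-fold, and the called probes ranged from 0.17 to 0.51. B2m, the light chain that class I heavy chains share, rose by a similar amount. Its normalised signal was 2.34, 2.34 and 2.41 in the wild type rats and 2.84, 2.71 and 2.82 in the SPORTS rats. The groups did not overlap, and their means were 2.37 ± 0.04 and 2.79 ± 0.07 (SD, n = 3 each). The difference was 0.42 ± 0.05 (1.34-fold, limma adjusted p = 0.00354), and 0.38 with slide row as a block (adjusted p = 0.0442).

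The classical class I genes RT1-A1 and RT1-A2 encode the main peptide-presenting heavy chains of the rat. The brighter RT1-A1 probe read 2.42, 2.37 and 2.43 in wild type and 2.87, 2.75 and 2.92 in SPORTS. All SPORTS rats stood above all wild type rats, by 0.44 ± 0.05 (1.36-fold, limma adjusted p = 0.00433), and the call was lost with the row as a block (0.42, adjusted p = 0.0523). The second RT1-A1 probe read 1.19, 1.17 and 1.13 against 1.64, 1.52 and 1.68, a difference of 0.45 ± 0.05 (adjusted p = 0.00340), and was still called with the block (0.48, adjusted p = 0.0322). RT1-A2 read -1.02, -1.14 and -1.10 in wild type and -0.55, -0.70 and -0.54 in SPORTS, again without overlap. Its difference was 0.49 ± 0.06 (1.41-fold, adjusted p = 0.00400), and 0.51 with the row as a block (adjusted p = 0.0422).

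The promoters of B2m and RT1-A1 are shown with those of RT1-S2, a called class I gene, RT1-Db1, the class II gene with the largest rise, and RT1-N2, a class I gene that was not called. They are the 250 bases before the gene's start in RefSeq (build GRCr8), 5′ to 3′ on the strand of the gene. RT1-A1, RT1-S2 and RT1-N2 were chosen for display after their values were seen. Capitals mark matches on either strand to TGACG, the core of the X2 box bound by CREB factors, to ATTGG, the Y box bound by NF-Y, and to GAAA, any 2 bases and GAAA, a form of the interferon-stimulated response element.
B2m promoter, chr3:129549080-129549329, plus strand: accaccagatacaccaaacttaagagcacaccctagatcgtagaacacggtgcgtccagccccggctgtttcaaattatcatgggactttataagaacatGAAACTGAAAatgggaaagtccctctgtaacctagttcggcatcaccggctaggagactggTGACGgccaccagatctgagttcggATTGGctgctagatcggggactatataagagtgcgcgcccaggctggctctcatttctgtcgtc
RT1-A1 promoter, chr20:4906959-4907208, plus strand: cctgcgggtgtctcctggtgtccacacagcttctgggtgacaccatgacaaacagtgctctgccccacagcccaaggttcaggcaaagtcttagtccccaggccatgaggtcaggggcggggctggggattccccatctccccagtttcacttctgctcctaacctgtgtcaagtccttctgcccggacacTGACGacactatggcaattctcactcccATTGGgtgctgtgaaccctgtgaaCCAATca
RT1-S2 promoter, chr20:2654804-2655053, plus strand: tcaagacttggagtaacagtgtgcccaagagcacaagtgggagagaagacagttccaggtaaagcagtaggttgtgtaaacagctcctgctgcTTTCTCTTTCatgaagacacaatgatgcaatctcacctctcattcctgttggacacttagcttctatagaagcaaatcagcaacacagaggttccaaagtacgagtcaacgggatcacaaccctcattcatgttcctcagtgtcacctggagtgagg
RT1-Db1 promoter, chr20:4560163-4560412, minus strand: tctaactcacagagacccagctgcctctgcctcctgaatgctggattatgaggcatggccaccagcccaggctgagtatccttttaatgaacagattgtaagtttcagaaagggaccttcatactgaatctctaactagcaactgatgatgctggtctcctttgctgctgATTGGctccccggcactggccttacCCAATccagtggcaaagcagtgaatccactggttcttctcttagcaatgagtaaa
RT1-N2 promoter, chr20:2646080-2646329, plus strand: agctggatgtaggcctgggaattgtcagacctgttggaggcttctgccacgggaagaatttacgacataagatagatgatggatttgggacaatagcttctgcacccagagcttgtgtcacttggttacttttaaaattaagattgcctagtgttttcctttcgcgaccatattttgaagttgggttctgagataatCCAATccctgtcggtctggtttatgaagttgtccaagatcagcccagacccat

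In the B2m window the marked form of the response element begins at -150, TGACG at -89 and ATTGG at -64, counted from -1 as the last base before the start. RT1-A1 has TGACG at -59 and ATTGG at -31, with a second ATTGG on the other strand at -7. TGACG followed within 30 bases by ATTGG on the same strand occurred in 5 of 41 member promoters (12.2%), those of B2m, RT1-A1, RT1-A2, RT1-Ba and RT1-M3-1, and in 0.729% of 33469 promoters. ATTGG alone, on either strand, occurred in 65.9% of member promoters and 34.0% of all, and TGACG alone in 24.4% and 18.2%. The marked form of the response element occurred in 8 member promoters (19.5%) and in 3.41% of all. Other forms of the element were not searched for, so a window without a match, such as that of RT1-A1, may still hold one. The 8 were those of B2m, RT1-N3, RT1-S2 and RT1-S3, which rose, and of Tap1, Tap2, Tapbp and Psmb10, which were not called. A loose form of the NF-kB site, GGG, any 5 bases and CC, is not marked in capitals and occurred in 53.7% of member promoters and 42.3% of all. By outcome, TGACG was found in 9 of 22 promoters of genes called higher, 0 of 9 of tested genes not called and 1 of 10 of genes not tested. ATTGG was found in 16, 5 and 6 of these. A match describes letters only, RT1 promoters resemble one another, 6 member genes had no entry, and no test was run on these shares.

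The RT1-CE genes lie in the part of the complex that varies in gene number between rat strains. Of 10 tested RT1-CE probes, for 9 genes, 9 were called higher in limma. With slide row as a block 0 of them were called (9 higher at an unadjusted p under 0.05), with differences of 0.24 to 0.44 for the 9 (adjusted p = 0.0528 to 0.197). RT1-CE3 read -2.54, -2.52 and -2.44 in wild type and -1.93, -2.14 and -2.01 in SPORTS, a difference of 0.47 ± 0.06 (limma adjusted p = 0.00585). RT1-CE15 read -3.79, -3.71 and -3.51 against -3.14, -3.34 and -3.11, a difference of 0.47 ± 0.10 (adjusted p = 0.0213). Neither gene's groups overlapped, and the RT1-CE15 call was lost without wild type replicate 1 or 2 or SPORTS replicate 1 or 3. RT1-CE16 rose by 0.46 ± 0.06, RT1-CE11 by 0.42 ± 0.08, RT1-CE7 by 0.41 ± 0.07, RT1-CE5 by 0.40 ± 0.06, and RT1-CE4 and RT1-CE13 by 0.33 each. The RT1-CE2 probes read alike in size, 0.43 ± 0.06 (adjusted p = 0.00489) and 0.39 ± 0.11, but the second missed the threshold (adjusted p = 0.0504). The RT1-CE11 call was lost without any array but wild type replicate 3, and the RT1-CE13 call without any array but SPORTS replicate 2.

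Nonclassical class I genes, which vary less between animals and have more restricted roles, included the largest class I difference and the exceptions. RT1-T24-4 read -2.41, -2.48 and -2.11 in wild type and -1.77, -1.88 and -1.83 in SPORTS. Wild type replicate 3 lay nearest to the SPORTS rats, and the groups did not overlap. The difference was 0.51 ± 0.10 (1.42-fold, limma adjusted p = 0.0206), it was 0.28 with the row as a block (adjusted p = 0.0755), and the call held only without wild type replicate 3 among the 6 fits that leave out an array. RT1-T18 rose by 0.43 ± 0.05 (adjusted p = 0.00297), RT1-S3 by 0.38 ± 0.06 and RT1-N3 by 0.37 ± 0.06. RT1-N3 was not called under quantile normalisation or a trended and robust variance. The 2 RT1-S2 probes rose by 0.44 ± 0.05 and 0.43 ± 0.04 (adjusted p = 0.00412 and 0.00253).

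RT1-M3-1, whose mouse counterpart presents formylated peptides, rose least of the called class I genes. Its values were -1.46, -1.45 and -1.45 in wild type and -1.27, -1.32 and -1.26 in SPORTS, a difference of 0.17 ± 0.03 (1.13-fold, limma adjusted p = 0.0193). Without any array but SPORTS replicate 2 the call was lost. The other 19 called class I probes rose by 0.33 to 0.51. RT1-N2 read -1.10, -1.17 and -1.19 in wild type and -1.23, -1.10 and -1.10 in SPORTS. The groups overlapped, and the 95% interval of its difference, -0.11 to 0.14, lay below the estimate of every called class I gene. RT1-N2 was singled out after its values were seen.

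The tested probes of RT1-M6-1 disagreed in direction. The brighter probe read 0.51, 0.47 and 0.64 in wild type and 1.02, 0.84 and 0.93 in SPORTS, a rise of 0.39 ± 0.07 (limma adjusted p = 0.0125). The dimmer one read -1.77, -1.95 and -1.96 against -2.31, -2.20 and -1.89, and its difference of -0.24 ± 0.12 was not called (adjusted p = 0.212). RT1-M4, above background on 3 wild type and 2 SPORTS arrays, differed by -0.42 ± 0.39 and was not called. With slide row as a block 6 class I probes were called, those of RT1-A2, RT1-N3 and RT1-T18, 1 of the 2 of RT1-A1 and both of RT1-S2, and the class median was 0.33. Class I genes are near copies of one another and the probe sequences are not used here, so 1 probe may read transcripts of several genes and the 20 calls are not independent. The RT1 haplotype of the rats is not given, and whether RT1 sequence or gene number differed between the groups was not tested.

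**Figure D2:**
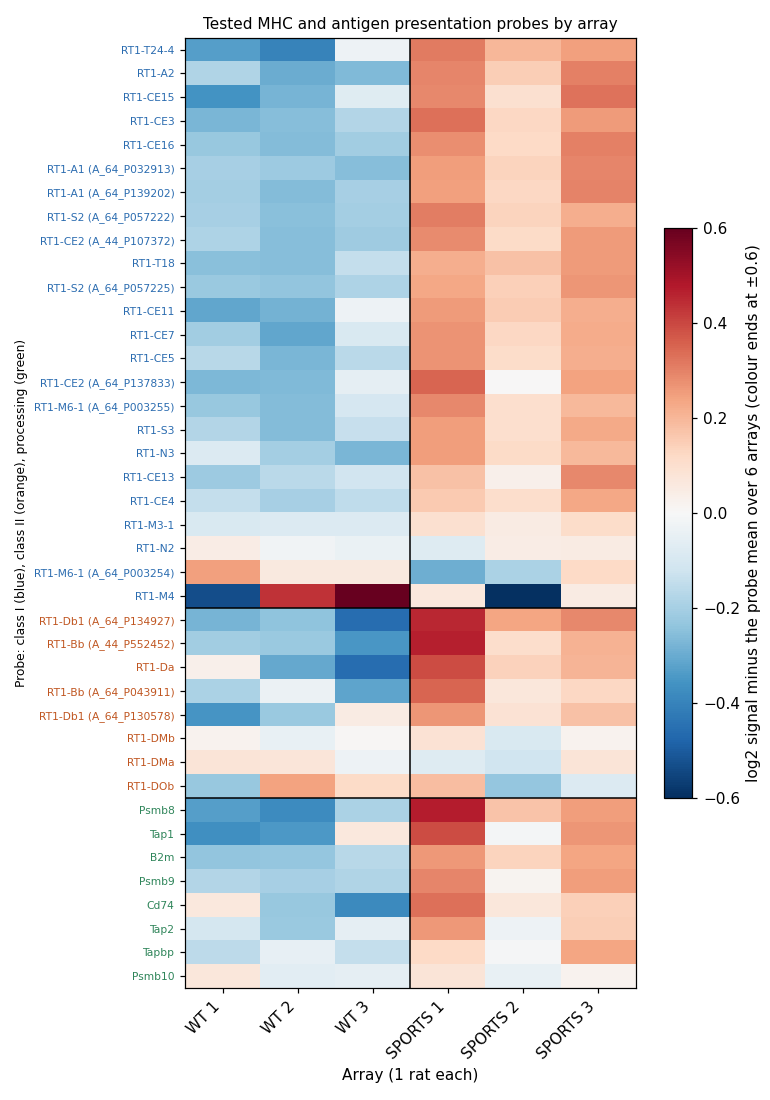
Normalised log2 signal of each tested member probe (rows, labels coloured by class) on each of the 6 arrays (columns), as the difference from the probe's mean over the 6 arrays. In 32 of the 40 rows all 3 SPORTS arrays lie above all 3 wild type arrays, and SPORTS replicate 2 is the lowest SPORTS array in 38.

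Fewer class II probes were called. Of 8 tested probes, for 6 genes, 2 were called higher and 0 lower (limma; 5 higher and 0 lower at an unadjusted p under 0.05), with a median difference of 0.35, or 1.28-fold. The called probes read RT1-Db1 and RT1-Bb, the beta chains of the D and B molecules, the rat's counterparts of HLA-DR and HLA-DQ. RT1-Db1 read -2.67, -2.63 and -2.85 in wild type and -1.94, -2.15 and -2.10 in SPORTS, without overlap. The difference was 0.65 ± 0.08 (1.57-fold, adjusted p = 0.00466). This was the largest difference of any tested member, and with the row as a block it was 0.78 (adjusted p = 0.0184). This 0.78 is the difference within slide row 2, where wild type rests on 1 rat.

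A second RT1-Db1 probe read -2.69, -2.56 and -2.29 in wild type and -2.07, -2.25 and -2.16 in SPORTS. Its groups nearly met at wild type replicate 3, and its difference of 0.35 ± 0.11 was not called (limma adjusted p = 0.0792). With the row as a block it was 0.12 (adjusted p = 0.478), so the RT1-Db1 probes differ in how far wild type replicate 3 lies from the SPORTS rats. RT1-Bb read -2.66, -2.68 and -2.80 in wild type and -1.99, -2.35 and -2.25 in SPORTS on its brighter probe. The groups did not overlap, the difference was 0.52 ± 0.10 (1.43-fold, adjusted p = 0.0187; 0.61 and 0.0797 with the block), and the call was lost without wild type replicate 2 or 3 or SPORTS replicate 3. Its dimmer probe read -3.87, -3.72 and -4.00 against -3.34, -3.62 and -3.56, a difference of 0.36 ± 0.10 that was not called (adjusted p = 0.0583).

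RT1-Da, the alpha chain of the D molecule, read -3.52, -3.85 and -4.00 in wild type and -3.15, -3.41 and -3.34 in SPORTS. The groups did not overlap, but wild type replicate 1 lay close to the SPORTS rats, and the difference of 0.49 ± 0.14 was not called (limma adjusted p = 0.0580, 95% interval 0.15 to 0.83). Cd74, the invariant chain that fills the groove of new class II molecules, had the same order of rats. It read -1.33, -1.62 and -1.77 against -1.06, -1.33 and -1.25, with wild type replicate 1 and SPORTS replicate 2 nearly equal. The Cd74 difference of 0.36 ± 0.13 was not called either (limma adjusted p = 0.107, 95% interval 0.04 to 0.68). With the row as a block the differences were 0.70 for RT1-Da and 0.56 for Cd74, also not called (adjusted p = 0.0768 and 0.104).

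The RT1-DM chains, which swap the invariant chain remnant for antigenic peptide in the endosome, gave differences near 0. RT1-DMa read -0.38, -0.38 and -0.49 in wild type and -0.53, -0.57 and -0.38 in SPORTS. RT1-DMb read -1.07, -1.14 and -1.09 against -1.01, -1.19 and -1.07. Both pairs of groups overlapped, with 95% intervals of -0.24 to 0.08 and -0.13 to 0.15. The interval of the called RT1-Db1 probe (0.45 to 0.86) lay above both, but that of the other RT1-Db1 probe (0.08 to 0.62) overlapped them, and the chains were not tested against each other. RT1-DOb, a chain of the molecule that restrains DM, read -5.70, -5.24 and -5.36 against -5.29, -5.71 and -5.56, and its difference was -0.09 ± 0.16 (limma adjusted p = 0.747, 95% interval -0.47 to 0.30). It was above background on 3 wild type and 2 SPORTS arrays. RT1-Ba, RT1-DOa and RT1-Ha were not well above background on any array, and the same was found for Ciita, the activator on which class II transcription depends.

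**Figure D3:**
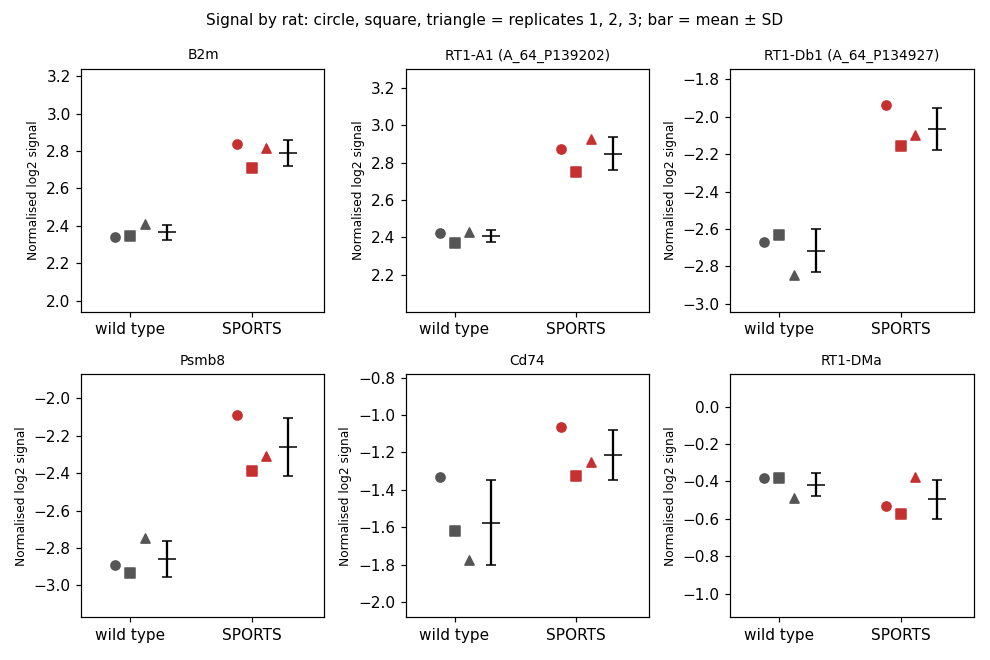
Normalised log2 signal (y axis, the same 1.3 log2 units tall in each panel) of 6 member probes in each rat, wild type beside SPORTS, with the mean ± SD of 3 rats. B2m, RT1-A1, RT1-Db1 and Psmb8 have every SPORTS rat above every wild type rat. In Cd74, which was not called, wild type replicate 1 (-1.330) and SPORTS replicate 2 (-1.327) nearly tie, and RT1-DMa has overlapping groups.

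Among the processing genes 3 of 8 tested were called higher and 0 lower (limma; 7 higher and 0 lower at an unadjusted p under 0.05), with a median difference of 0.37, or 1.29-fold. Besides B2m these were Psmb8 and Psmb9, catalytic subunits that replace the constitutive ones in the immunoproteasome. Psmb8 read -2.89, -2.93 and -2.75 in wild type and -2.09, -2.39 and -2.31 in SPORTS. The groups stood well apart, by 0.60 ± 0.09 (1.51-fold, limma adjusted p = 0.00899). With the row as a block the difference was 0.49 (adjusted p = 0.0908). B2m was the 1 processing gene called with the block. Psmb9 read -1.99, -2.01 and -1.99 against -1.52, -1.80 and -1.56, a difference of 0.37 ± 0.08 (1.29-fold, adjusted p = 0.0225) that was lost without any array but SPORTS replicate 2. Psmb10, the third subunit of that set, read 1.91, 1.78 and 1.79 against 1.92, 1.80 and 1.87. Its groups overlapped, and the 95% interval of its difference, -0.10 to 0.17, lay below the intervals of Psmb8 and Psmb9, which began at 0.37 and 0.18.

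The genes that carry peptides to class I molecules were all higher by estimate, with no call. Tap1 differed by 0.43 ± 0.15 (limma adjusted p = 0.108), with overlapping groups and a difference of 0.15 with the row as a block. Tap2 differed by 0.25 ± 0.09 and Tapbp, which bridges the transporter and the heavy chain, by 0.23 ± 0.07 (adjusted p = 0.0956 and 0.0700). Their 95% intervals ran from 0.05 to 0.81, from 0.04 to 0.47 and from 0.06 to 0.41.

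**Figure D4:**
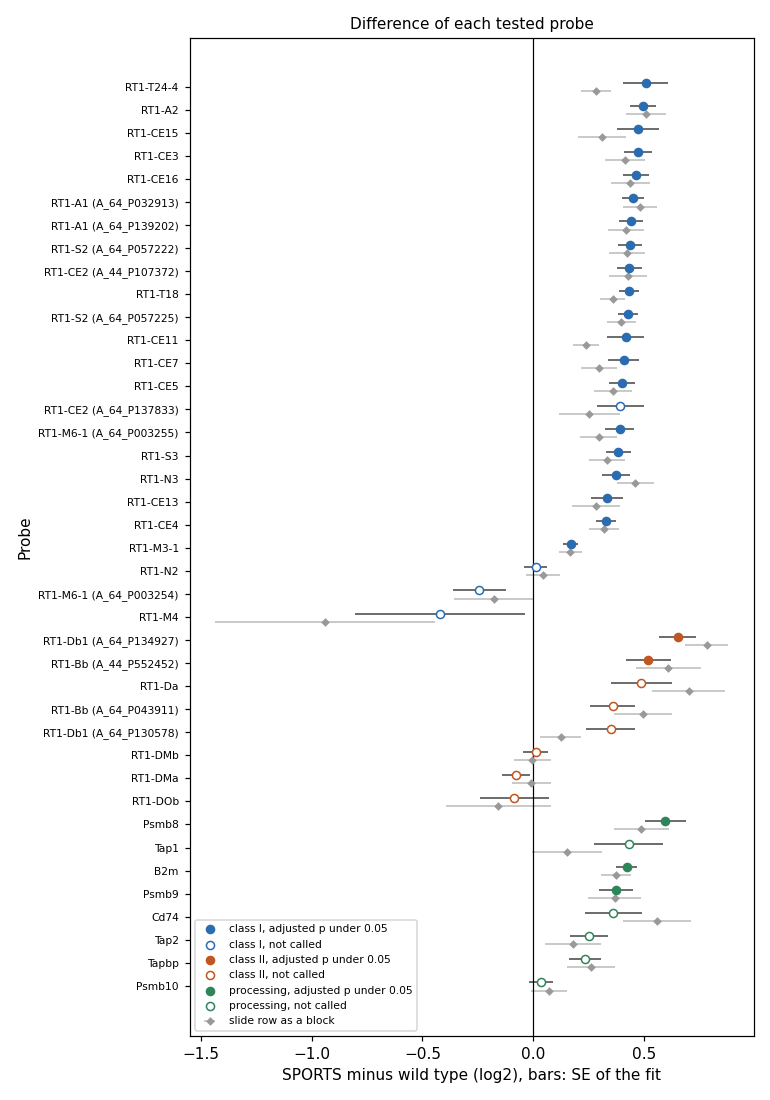
SPORTS minus wild type difference (x axis, log2, bars are the SE of the fit) of each tested member probe (rows), filled where the adjusted p was under 0.05 and coloured by class, with the estimate that has slide row as a block as grey diamonds. The 25 filled points all lie right of 0, from 0.17 to 0.65, and 8 of the 40 probes were called with the block.

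The remaining 16 member probes were not tested. They comprised 12 class I probes, 3 class II probes and that of Ciita, and 9 of the 16 were not well above background on any array, among them both RT1-M1-5 probes and the RT1-M5 probe. The other 7, of RT1-CE6, RT1-CE10, RT1-CE12, RT1-M1-2, RT1-M1-4, RT1-M2 and RT1-T24-2, passed on some arrays only. RT1-CE5 and RT1-T18 had a second probe that was tested and called, with wild type means of 0.18 and -0.70. Their untested probes were not well above background on any array (wild type means -7.0 and -6.9), so the probes of these genes disagree on level. Of the 40 tested probes 38 were above background on all arrays, the exceptions being RT1-M4 and RT1-DOb.

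The SPORTS rats were not alike in these genes. SPORTS replicate 2 was the lowest of the 3 in 38 of 40 member probes, in 22 of 24 of class I and in 8 of 8 of both class II and processing, against 42.3% of all tested probes. The median SD within a group was 0.088 over the members and 0.064 over all tested probes. Of the 25 calls 18 held in every fit that left out 1 array, 15 of them in class I. Members share tissue, array and, in class I, sequence, so these counts describe the rats and are not separate observations.

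Genes that act with the members were taken from 7 lists. Of 38 tested genes 9 were called higher and 1 lower (limma, 1 probe a gene), where 12.9% of all 11032 genes were called higher and 11.4% lower. With slide row as a block 1 of the 38 was called higher, and 0 lower, where 4.03% of all genes were called higher and 4.31% lower (at an unadjusted p under 0.05, 8 higher and 2 lower). None of 5 tested genes of peptide loading was called in limma, with 0 at an unadjusted p under 0.05 and a median difference of 0.10. The trimming genes of that list, Erap1 and Lnpep, had no matched probe. Of 7 proteasome genes (median 0.05) 2 rose, both activators that interferon induces and that widen the proteasome's gate. Psme1 differed by 0.31 ± 0.07 and Psme2 by 0.24 ± 0.03 (adjusted p = 0.0279 and 0.00724), while the constitutive subunits Psmb5, Psmb6 and Psmb7 were not called. The Psme1 call was lost without wild type replicate 1 or 2 or SPORTS replicate 1 or 3, and so was that of Irf9 below. Of 6 genes of endosomal proteolysis (median 0.0008) 1 rose, Ifi30, a thiol reductase that unfolds antigens for class II loading, by 0.37 ± 0.05 (adjusted p = 0.00674).

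Of 7 tested transcription factors of MHC genes 1 was called higher and 0 lower, with a median difference of 0.08. Of 3 tested MHC-like genes encoded outside the complex (median 0.33) 2 rose. Cd1d1, which presents lipids, differed by 0.39 ± 0.08 and Fcgrt, the neonatal Fc receptor, which also pairs with B2m, by 0.33 ± 0.06 (adjusted p = 0.0224 and 0.0115). Cd1d1 was the 1 gene of the lists called with the row as a block (0.51, adjusted p = 0.0493), but its call was lost without wild type replicate 2 or 3 or SPORTS replicate 1 or 3. Both tested genes of receptors for MHC molecules, Cd8b and Klrk1, were not called in limma (0 of 2 at an unadjusted p under 0.05, median -0.02).

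Of 8 tested interferon and receptor genes (median 0.03) 3 rose and 1 fell. Irf7, a transcription factor that interferon strongly induces, read -2.76, -2.66 and -1.33 in wild type and -0.48, -0.85 and -0.82 in SPORTS. Wild type replicate 3 lay between the other wild type rats and the SPORTS rats. The difference of 1.54 ± 0.40 (limma adjusted p = 0.0433) was lost without any array but wild type replicate 3, and it was 0.62 with the row as a block (adjusted p = 0.0985). Irf9 rose by 0.45 ± 0.10 and Ifngr1, a chain of the interferon gamma receptor, by 0.29 ± 0.05 (adjusted p = 0.0314 and 0.00915). Stat2, which works with Irf9, fell by 0.20 ± 0.05 (adjusted p = 0.0390), a call lost without wild type replicate 2 or 3 or SPORTS replicate 2 or 3. Ifng itself was not well above background on any array.

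Markers of microglia, the brain's main class II-bearing cells, and the few tested markers of other immune cells were not called higher. Most markers of meninges and fibroblasts were. Of all 11032 genes 12.9% were called higher and 11.4% lower in limma, and no marker list was tested against these shares. Of 12 microglial and macrophage markers 0 were called higher and 2 lower (limma; 0 higher and 4 lower at an unadjusted p under 0.05), with a median difference of -0.07. Tmem119 fell by 0.77 ± 0.06 and Trem2 by 0.29 ± 0.06 (adjusted p = 0.00127 and 0.0287), and the Trem2 call held only without wild type replicate 2 among the fits that leave out an array. With the row as a block the median of the 12 was 0.03, and Tmem119, which fell by 0.67, was the 1 marker called. The mean level of the 12 lay between 0.07 and 0.19 in wild type and between -0.03 and 0.06 in SPORTS. Of 6 perivascular macrophage and dendritic cell markers on the array 2 were tested (median 0.10) and 0 called (0 at an unadjusted p under 0.05). Their mean level was -4.96 to -4.33 in the wild type rats and -4.72 to -4.13 in the SPORTS rats, and Mrc1, Xcr1, Clec9a and Ccr7 were not above background on any array. Of 7 T cell markers 2 were tested (median -0.09) and 0 called (0 at an unadjusted p under 0.05), with a mean level of -4.36 to -3.99 and -4.34 to -4.13, and Cd2 and Cd8a were not above background on any array. The 1 tested B cell marker, Pax5, read -1.83, -1.75 and -0.44 in the wild type rats and -1.71, -1.64 and -1.81 in the SPORTS rats, with wild type replicate 3 apart. It was not called, except with the row as a block, where it fell by 1.28 (adjusted p = 0.00396).

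Of 10 markers of meninges and fibroblasts 8 were called higher and 1 lower, with a median difference of 0.62, and 5 and 1 with the row as a block. Lum, 1 of the 8, was above background on 2 wild type and 3 SPORTS arrays. It was therefore tested through the SPORTS group alone. Dcn, a collagen-binding proteoglycan, rose by 1.12 ± 0.05 (limma adjusted p = 0.000143), while Ogn, another, fell by 0.92 ± 0.11. The calls of Lum, Slc6a13, Igf2 and Mgp were each lost in some of the fits that leave out an array. The mean level of the 10 lay from -0.70 to -0.56 in wild type rats and from -0.24 to -0.05 in SPORTS rats. Of 7 endothelial markers (median 0.20) 1 rose, Pecam1, by 0.26 ± 0.04 (adjusted p = 0.00896), with mean levels of -1.59 to -1.38 and -1.40 to -1.39. With the row as a block the endothelial median was 0.29, with 4 markers higher and 1 lower at an unadjusted p under 0.05 in limma. Pecam1 was not called in that fit (adjusted p = 0.0602) and Flt1 fell by 1.46 (adjusted p = 0.00867), again with wild type replicate 3 apart. Of 6 choroid plexus markers (median -0.35) 0 were called (0 at an unadjusted p under 0.05), with mean levels of -0.77 to -0.70 and -1.78 to -0.52. SPORTS replicate 1 stood apart there, at -1.78 against -0.74 and -0.52 in the other SPORTS rats, and without it the list's median was 0.05. It was the highest SPORTS array in 26 of 40 member probes and in 43.9% of all tested probes, and without it 19 members were called higher, with a median difference of 0.35. Of 5 erythroid markers (median 0.09) 2 were called higher, Hbb-bs (2.14 ± 0.26) and Hba-a3, whose signal in all wild type rats was not well above background. The mean levels of the 5, 0.49 to 0.56 and 1.58 to 2.46, rest on these genes, since Hba-a1, Hbb and Alas2 differed by 0.03, 0.08 and 0.09 and were not called. Whether the meningeal differences have any part in the rise of the MHC genes was not tested.

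**Figure D5:**
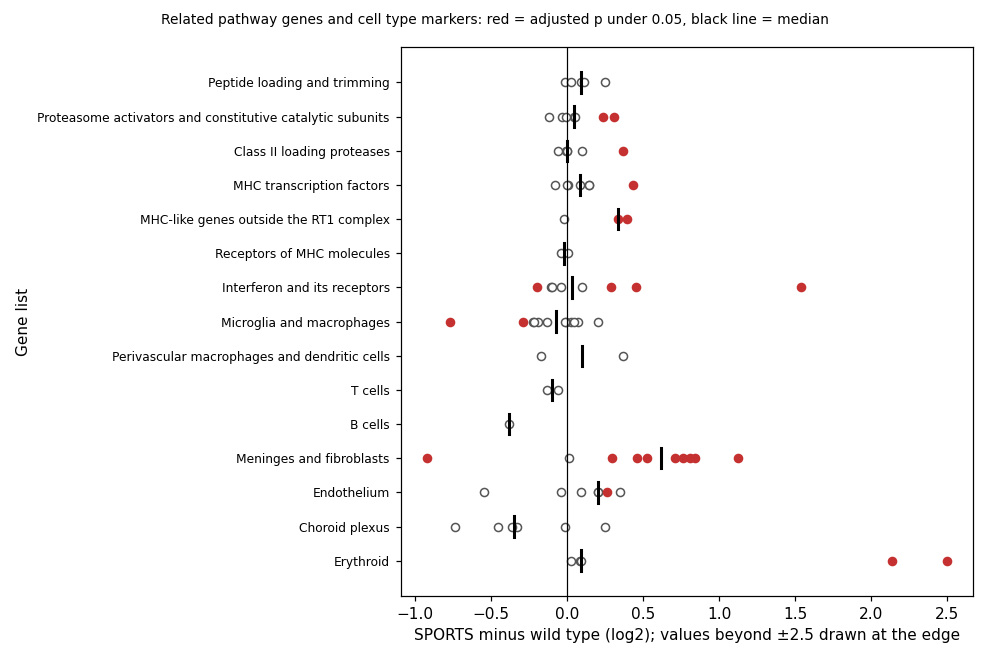
SPORTS minus wild type difference (x axis, log2) of each tested gene (points) of the 7 related pathway lists and of the cell type marker lists (rows), red where the adjusted p was under 0.05, with the median of each list as a black line. The meningeal and fibroblast markers have a median of 0.62 and the microglial markers of -0.07. With slide row as a block, which is not drawn, these medians were 0.76 and 0.03.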

How the data were processed

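The authors read the scans with Agilent Feature Extraction 10.10.1.1, per the submitters' processing notes, which gave spot intensity values, per the file headers, with background subtracted and no scaling between arrays. A table deposited for the whole series holds these intensity values multiplied, within each array, by a constant (1.38 to 1.47). Outlier-flagged spots were left out and log2 signals averaged per probe, minus the array's 75th percentile (1530 to 1628 before log2). Probes above background on all arrays of a group, in more than 0.5 of their spots, were tested with limma 3.58.1 in R 4.3.3 (files read with the package data.table, version 1.17.8), two-sided, without covariates. 2 probes with a missing array were left out.

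Symbols came from matching transcript accessions to RefSeq genes (18005 of 30367 probes), since the files used here pair no symbols with probes. Values per array are given for the 6 largest rises among called RT1 probes, called processing genes, Cd74 and class II chains, and for genes singled out after their values were seen; up to 4 called genes of each list are named, and some items are not reported here. Members and lists were chosen with earlier results of these data known. Each array is a separate rat, per the labels, and nothing pairs rats across groups. The procedure was tested on simulated data. Also run were a median shift, quantile normalisation, normexp (offset 50, on median brightness, since mean brightness was not used here), the deposited table, other filters on dim probes, outlier spots kept, a trended and robust variance, a 2-fold threshold, leaving out each array, and slide row as a block or row 2 alone.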

Additional observations from a re-analysis of the deposited data

How the results depend on the processing

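Counts called lower stayed at 0 for class I, class II and processing probes under every alternative run, and no called member changed direction. The class I count of 20 fell to 6 with slide row as a block, to 0 in row 2 alone and to 0 at a 2-fold threshold, and was 15 to 19 with 1 array left out. The class II count of 2 became 5 with normexp, 5 with a trended and robust variance, 1 without the filter on dim probes, 1 with the row as a block, 1 in row 2 alone, 0 at 2-fold, and 1 to 3 with 1 array left out. The processing count of 3 became 5 with normexp, 1 with the block, 0 in row 2, 0 at 2-fold, and 2 to 5 with 1 array left out. Related pathway genes called higher, 9, became 5 without the filter, 1 with the block, 0 in row 2, 1 at 2-fold, and 5 to 8 with 1 array left out. Those called lower, 1, became 2 with a median shift, 2 with a trended and robust variance, 0 without the filter, 0 with the block, 0 in row 2, 0 at 2-fold, and 0 to 1 with 1 array left out. Row 2 has 1 wild type array, and otherwise the cause was not tested.

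Sign changes fell on uncalled genes near 0. RT1-N2 (0.01) was -0.0052 with quantile normalisation, -0.020 with a median shift, and -0.011 to 0.053 with 1 array left out. RT1-DMb (0.01) was -0.021 with a median shift, -0.0038 with the block and in row 2, and -0.030 to 0.059 with 1 array left out. RT1-DOb (-0.09) was -0.22 to 0.013 with 1 array left out. No paired analysis was possible because the labels give no replicate numbers that pair rats. Signal close to background limits RT1-M4 and RT1-DOb.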

Other observations

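The MHC region holds many genes that present no antigen. Between the outermost RT1 genes in the RefSeq gene order lay 393 other genes, of which 86 were tested. Of these 6 were called higher in SPORTS and 2 lower (limma; 11 higher and 11 lower at an unadjusted p under 0.05), with a median difference of -0.01, where 12.9% of all genes were called higher. The complement gene C4a rose most, by 0.88 ± 0.14 (adjusted p = 0.00885), followed by the complement gene C2 (0.39 ± 0.10, adjusted p = 0.0463). The myelin gene Mog rose by 0.28 ± 0.04, and Tnxa-ps1, Clic1 and Brd2 rose by 0.29, 0.27 and 0.23. Trim26 fell by 0.41 ± 0.09 and Ppt2 by 0.15 ± 0.04 (adjusted p = 0.0274 and 0.0484). With slide row as a block 0 of the 86 were called in limma (5 higher and 11 lower at an unadjusted p under 0.05), and C4a differed by 0.63 (adjusted p = 0.0636).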
